A study of Mus musculus with 6 samples.

Results

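The enzymes of hepatic gluconeogenesis and the factors that control them were followed as 10 genes, taken by their symbols from a table of 23282 genes. Of these genes, 6 encode enzymes or a transporter of the pathway (*Pck1*, *Pck2*, *G6pc*, *Fbp1*, *Pcx* and *Slc37a4*) and 4 encode regulators (*Ppargc1a*, *Foxo1*, *Crtc2* and *Sik1*). All 10 were in the files, and all 10 passed the filter on low counts. Liver RNA was sequenced from 3 *Alb-Cre;Tcf7l2* f/f mice, called KO here, and 3 wild-type *Tcf7l2* f/f mice, called WT. *Tcf7l2* encodes a transcription factor of the Wnt pathway, and the question put to the libraries was whether the gluconeogenic genes differ when hepatocytes lose it. In KO mice *Cre* is driven by the promoter of albumin, a hepatocyte gene, and they carry *Tcf7l2* alleles floxed at exon 5. The WT littermates carry the floxed alleles and no *Cre*, so the presence of *Cre* and the loss of *Tcf7l2* cannot be told apart. By the labels all 6 mice were C57BL/6 and 12 weeks old, and each had gone without food for 24 h before a 24 h return to normal chow. There was no group that stayed fasted, so the values describe the fed liver only.

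Gluconeogenesis makes glucose from lactate, amino acids and glycerol, and in the liver it supports blood glucose during fasting. Glucagon raises its genes through cAMP, the kinase PKA, the factor CREB and the coactivator CRTC2, while insulin lowers them by sending FOXO1 out of the nucleus. After a meal the pathway is turned down and glycolysis is turned up.

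The promoters of *G6pc*, *Pck1* and *Ppargc1a* are shown since these genes are classic targets of CREB or FOXO1 and since the letters of the TCF/LEF motif are in one of them. Each run is the 250 bases before a RefSeq start site in GRCm38.p6, read 5′ to 3′ on the strand of the gene. The *Ppargc1a* window lies inside the span of its gene (51454249 to 52115853), so its start site is not the outermost one. Capitals mark every match, on either strand, to the forkhead core TGTTT, the TCF/LEF core CTTTGA or the core TGACG of the cAMP response element (CRE).
*G6pc*, chr11:101367466-101367715, plus strand: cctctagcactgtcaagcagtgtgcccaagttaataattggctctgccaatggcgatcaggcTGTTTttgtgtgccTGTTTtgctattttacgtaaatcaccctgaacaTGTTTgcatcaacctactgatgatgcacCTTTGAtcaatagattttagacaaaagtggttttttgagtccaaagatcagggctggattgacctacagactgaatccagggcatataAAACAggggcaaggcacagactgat
*Pck1*, chr2:173152823-173153072, plus strand: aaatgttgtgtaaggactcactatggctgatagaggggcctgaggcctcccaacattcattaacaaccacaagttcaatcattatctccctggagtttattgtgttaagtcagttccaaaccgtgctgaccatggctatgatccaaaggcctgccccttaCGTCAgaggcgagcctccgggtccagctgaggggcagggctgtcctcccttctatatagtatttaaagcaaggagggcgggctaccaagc
*Ppargc1a*, chr5:51567726-51567975, minus strand: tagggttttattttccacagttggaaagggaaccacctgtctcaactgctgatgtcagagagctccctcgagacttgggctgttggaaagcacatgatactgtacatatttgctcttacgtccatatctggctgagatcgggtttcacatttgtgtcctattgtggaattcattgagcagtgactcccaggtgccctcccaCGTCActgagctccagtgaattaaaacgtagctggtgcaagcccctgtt
The *G6pc* window held 4 forkhead cores, and its 1 TCF/LEF core began at −113 from the start site. In *Pck1* the 1 CRE core began at −90, and in *Ppargc1a* it began at −49. A window was found for 8 of the 10 genes, with 11 start sites in all; *Crtc2* and *Sik1* were not matched. The TCF/LEF core was in 2 of the 11 windows (*G6pc* and *Pck2*) and in 13.8% of all 32851 windows of this length. The forkhead core was in 5 of the 11 and in 46.4% of all windows. The CRE core was in 4 of the 11 and in 17.8% of all windows, and the full CRE TGACGTCA, which contains it, was in 0 of the 11 and in 1.55% of all. *Slc37a4* gave 3 of the 11 windows, and some of these overlap. These matches are descriptions of the letters, and binding was not measured here.

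None of the 10 gluconeogenic genes differed between KO and WT livers beyond the spread between mice. With counts scaled by TMM factors (factors that align the bulk of the genes between libraries) and tested by edgeR's quasi-likelihood test, the log2 fold changes of KO over WT ran from −0.15 to 0.32. The adjusted *p* values, by Benjamini-Hochberg over the 14076 genes tested, ran from 0.594 to 0.973, and 0 of 10 genes passed 0.05, where 0.448% of all tested genes did. At an unadjusted *p* under 0.05 the count was also 0 of 10, beside 13.5% of all tested genes. DESeq2, another count model, called 0 of 10, beside 3.08% of all tested genes. KO and WT values overlapped in 10 of 10 genes. Over all tested genes, every KO library lay above every WT library in 10.2% and below in 9.08%. The median log2 fold change of the 10 was −0.039, and that of all tested genes −0.017.

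**Figure D1:**
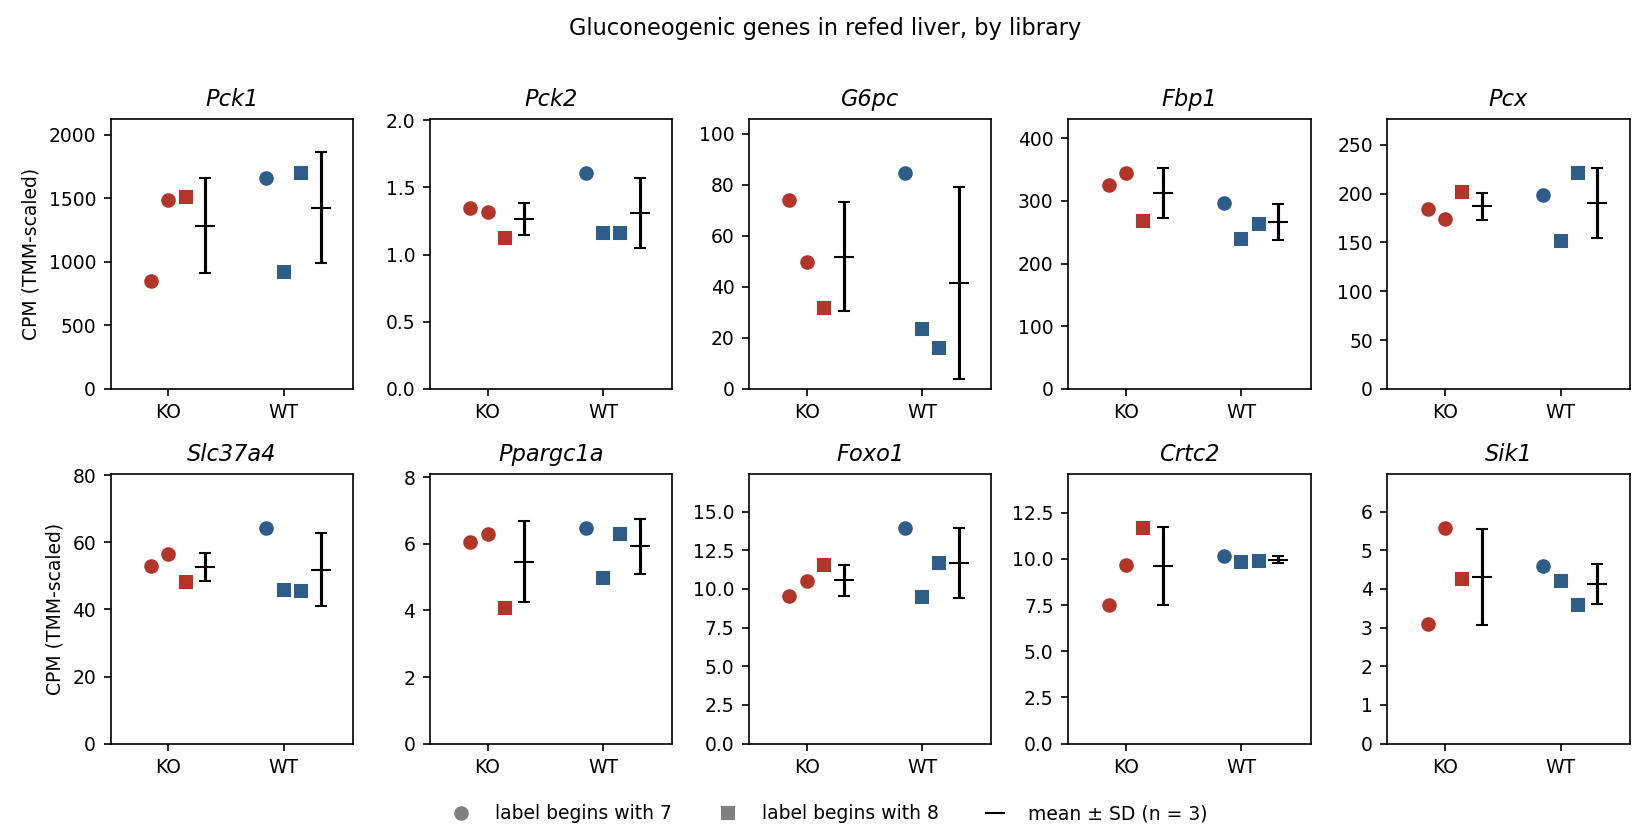
CPM, each count relative to its TMM-scaled library size (vertical axes, from 0) of the 10 genes in KO and WT livers; each point is 1 library, circles and squares stand for labels that begin with 7 and 8, and the bars are mean ± SD (n = 3). KO and WT points overlap in every panel, and the *G6pc* points run from 16.0 to 84.6 within WT alone.

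The 95% intervals of the fold changes show what sizes of difference these libraries could have held. They were computed gene by gene from the same fit and were not adjusted for the number of genes. All 10 intervals included 0. For 9 of 10 genes, *G6pc* being the exception, the interval lay between −1 and 1 on the log2 scale, that is, within a 2-fold change either way. For 8 of 10 it also lay below a 1.5-fold increase, and *G6pc* and *Fbp1* were the exceptions.

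**Figure D2:**
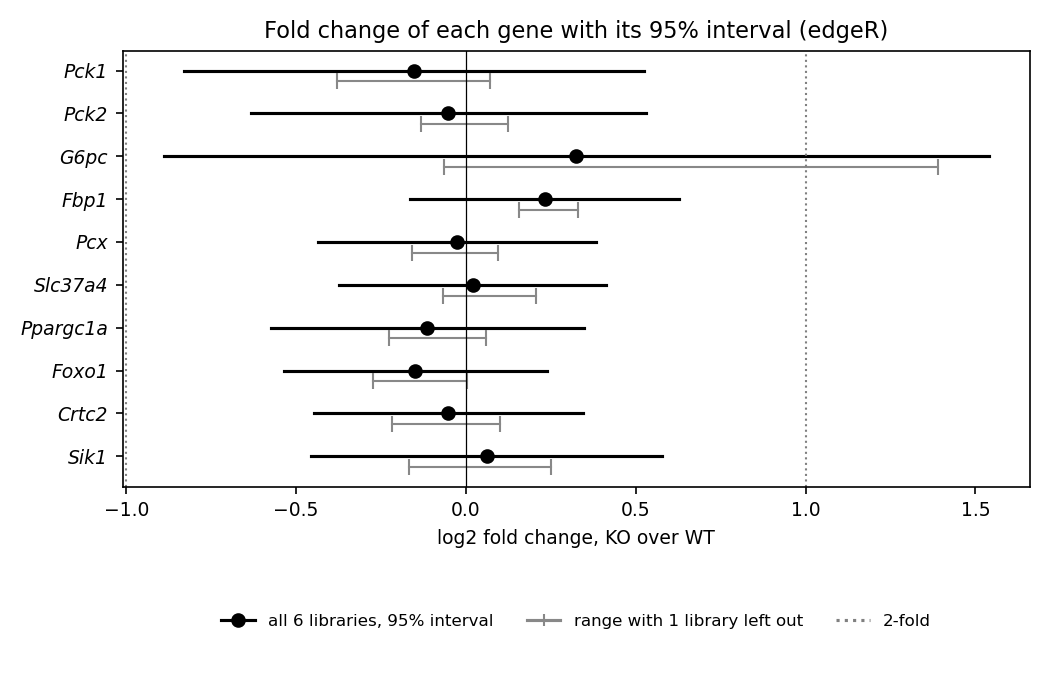
Log2 fold change of KO over WT (horizontal axis) for each gene, with black points and lines for edgeR's estimate over all 6 libraries and its 95% interval, and grey lines for the range of estimates with 1 library left out. Every black line crosses 0, and only that of *G6pc*, from −0.89 to 1.54, extends past the dotted line of a 2-fold increase.

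The cytosolic step at the start of the pathway showed no difference beyond the spread, and its limits were wide. *Pck1* encodes the cytosolic phosphoenolpyruvate carboxykinase, which turns oxaloacetate into phosphoenolpyruvate, and lies on chromosome 2 from 173153073 to 173159274 of GRCm38.p6 (NM_011044). It stood at 852, 1490 and 1510 CPM in KO libraries 7-2, 7-3 and 8-3, and at 1657, 924 and 1703 CPM in WT libraries 7-2, 8-1 and 8-3. One library of each genotype, KO 7-2 and WT 8-1, was low, and the others were close together. The means were 1284 ± 374 CPM in KO and 1428 ± 437 CPM in WT (SD, n = 3 each), and edgeR's quasi-likelihood fit gave a log2 fold change of −0.15 (SE 0.30, 95% interval −0.83 to 0.52, adjusted *p*=0.862). Counts of 72210 to 130116 per library stood behind these values.

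*Pck2*, its mitochondrial counterpart on chromosome 14 (55540263 to 55550020; NM_028994), was scarce. KO libraries 7-2, 7-3 and 8-3 had 114, 100 and 97 counts, or 1.35, 1.32 and 1.13 CPM. WT libraries 7-2, 8-1 and 8-3 had 107, 97 and 79 counts, or 1.61, 1.16 and 1.16 CPM. The KO values lay inside the range of the WT values apart from KO 8-3, which was just below it (log2 fold change −0.051, SE 0.26, 95% interval −0.63 to 0.53, edgeR adjusted *p*=0.956).

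*G6pc* was the most variable of the 10. It encodes the catalytic subunit of glucose-6-phosphatase, which releases free glucose in the last step of the pathway, and lies on chromosome 11 from 101367716 to 101377903 (NM_008061). KO libraries 7-2, 7-3 and 8-3 held 74.0, 49.6 and 31.7 CPM, and WT libraries 7-2, 8-1 and 8-3 held 84.6, 23.5 and 16.0 CPM. The highest value and the 2 lowest were all WT, and the 3 KO livers lay between them. The highest value was 2.33 times the lowest among KO libraries and 5.29 times the lowest among WT libraries. A spread at least that wide was seen in 8.91% of all tested genes in KO and in 2.51% in WT. The means were 51.8 ± 21.2 CPM in KO and 41.4 ± 37.7 CPM in WT (log2 fold change 0.32, SE 0.54, 95% interval −0.89 to 1.54, edgeR adjusted *p*=0.831). The estimate was 1.39 without WT 7-2 (edgeR adjusted *p*=0.134), −0.064 without WT 8-3 and −0.024 without KO 7-2, and it was 0.65 with quantile-normalised limma (adjusted *p*=0.59).

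All 3 libraries whose labels begin with 7 had more *G6pc* than all 3 whose labels begin with 8, across genotypes. What that number marks is not given in the sources used here. Among the libraries that begin with 7, the KO mean of log2 CPM lay below WT by a difference of −0.48, and among those that begin with 8 it lay above by 0.71. With a replicate block on this number the log2 fold change was 0.11 (edgeR adjusted *p*=0.882). *Pck2*, *Fbp1* and *Slc37a4* also had every library that begins with 7 above every one that begins with 8, whereas *Pck1* did not (within-number differences of −0.56 and 0.27). That made 4 of 10 genes with the libraries that begin with 7 above and 0 of 10 with them below, where 3.82% of all tested genes had them above and 4.07% below. This split was noticed in the data and is given as a description. *Fbp1* was higher in KO within both numbers, by 0.18 and 0.095.

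*Slc37a4*, on chromosome 9 (44396946 to 44402966; NM_001293631), encodes the transporter that carries glucose 6-phosphate to glucose-6-phosphatase in the endoplasmic reticulum. It had 53.0, 56.5 and 48.1 CPM in KO libraries 7-2, 7-3 and 8-3, against 64.4, 45.7 and 45.6 CPM in WT libraries 7-2, 8-1 and 8-3. WT 7-2 was again the highest, and the KO values lay inside the WT range (log2 fold change 0.020, SE 0.18, 95% interval −0.37 to 0.41, edgeR adjusted *p*=0.973).

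*Fbp1*, which encodes the liver fructose-1,6-bisphosphatase, had the largest estimate relative to its error, although it missed the test as well. It lies on the minus strand of chromosome 13 from 62864753 to 62888298 (NM_019395). KO libraries 7-2, 7-3 and 8-3 had 326, 345 and 268 CPM, against 297, 240 and 263 CPM in WT libraries 7-2, 8-1 and 8-3. The 2 highest values were KO, but KO 8-3 was below WT 7-2. The means were 313 ± 39.8 CPM in KO and 267 ± 28.6 CPM in WT (log2 fold change 0.23, SE 0.18, 95% interval −0.17 to 0.63, edgeR adjusted *p*=0.594). The estimate stayed above 0 with each library left out, from 0.16 to 0.33.

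*Pcx* encodes pyruvate carboxylase, the mitochondrial enzyme that makes oxaloacetate from pyruvate, and lies on chromosome 19 from 4510472 to 4621752 (NM_001162946). Its levels were 185, 175 and 202 CPM in KO libraries 7-2, 7-3 and 8-3 and 198, 152 and 222 CPM in WT libraries 7-2, 8-1 and 8-3, with all KO values inside the WT range (log2 fold change −0.026, SE 0.18, 95% interval −0.44 to 0.38, edgeR adjusted *p*=0.966). The gene *Lrfn4* lies within the span of *Pcx* and had 680 to 1062 counts per library, where *Pcx* had 12716 to 17418. Whether the counting used strand is not given, so reads may be shared between the pair.

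None of the 4 regulators differed beyond the spread either. *Ppargc1a* encodes PGC-1α, a coactivator that fasting induces, and lies on chromosome 5 (51454249 to 52115853; NM_008904). It had 6.04, 6.29 and 4.06 CPM in KO libraries 7-2, 7-3 and 8-3, against 6.48, 4.97 and 6.30 CPM in WT libraries 7-2, 8-1 and 8-3. KO 8-3 was the lowest of the 6, and the groups overlapped (log2 fold change −0.11, SE 0.21, 95% interval −0.57 to 0.35, edgeR adjusted *p*=0.846).

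*Foxo1*, on chromosome 3 (52268337 to 52350109; NM_019739), encodes the forkhead factor that insulin restrains through AKT. Its KO libraries 7-2, 7-3 and 8-3 stood at 9.56, 10.5 and 11.5 CPM and its WT libraries 7-2, 8-1 and 8-3 at 14.0, 9.46 and 11.7 CPM, so that the KO values lay within the WT range (log2 fold change −0.15, SE 0.17, 95% interval −0.53 to 0.24, edgeR adjusted *p*=0.734). The main control of FOXO1 is through phosphorylation and place in the cell, which mRNA counts do not measure, and the same holds for CRTC2.

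*Crtc2*, on chromosome 3 (90253858 to 90264125; NM_028881), encodes the CREB coactivator that glucagon signalling frees. KO libraries 7-2, 7-3 and 8-3 had 7.48, 9.65 and 11.7 CPM, against 10.2, 9.83 and 9.87 CPM in WT libraries 7-2, 8-1 and 8-3. The KO libraries lay on both sides of the WT libraries, which were close together. The highest value was 1.56 times the lowest in KO and 1.03 times in WT, and 99.1% of all tested genes had a WT spread at least as wide as that of *Crtc2*. The log2 fold change was −0.052 (SE 0.18, 95% interval −0.45 to 0.34, edgeR adjusted *p*=0.931).

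*Sik1*, on the minus strand of chromosome 17 (31844248 to 31855804; NM_010831), encodes a kinase that CREB induces and that in turn holds CRTC2 in the cytosol. It had 3.09, 5.58 and 4.25 CPM in KO libraries 7-2, 7-3 and 8-3, against 4.59, 4.22 and 3.57 CPM in WT libraries 7-2, 8-1 and 8-3. Both the highest and the lowest value were KO (log2 fold change 0.062, SE 0.23, 95% interval −0.46 to 0.58, edgeR adjusted *p*=0.938). These values rested on 243 to 424 counts per library.

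To order the levels of the 10 genes, CPM was divided by the length of the transcript in kilobases, with the length of the GENCODE canonical transcript. On that scale *Pck1* was the highest, at 483 ± 141 CPM per kb in KO and 537 ± 164 CPM per kb in WT (SD, n = 3 each). *Fbp1* followed at 197 ± 25.1 CPM per kb in KO and 168 ± 18.0 CPM per kb in WT. *Pcx* had 44.3 ± 3.30 in KO and 45.1 ± 8.39 in WT, *Slc37a4* had 25.2 ± 2.02 in KO and 24.8 ± 5.19 in WT, and *G6pc* had 21.3 ± 8.73 in KO and 17.0 ± 15.5 in WT, all in CPM per kb. *Slc37a4* and *G6pc*, neighbours in this order, did not differ beyond their spread. All 4 regulators were below these enzymes, from *Crtc2* at 3.50 ± 0.765 CPM per kb in KO and 3.63 ± 0.0673 in WT, through *Foxo1* at 1.22 ± 0.115 in KO and 1.35 ± 0.26 in WT and *Ppargc1a* at 0.846 ± 0.189 in KO and 0.916 ± 0.128 in WT, down to *Sik1* at 0.482 ± 0.139 in KO and 0.462 ± 0.0576 in WT. *Pck2* was the lowest, at 0.273 ± 0.0259 CPM per kb in KO and 0.283 ± 0.0562 in WT. Its place below *Sik1* depends on the transcript length used, since the median length of its coding transcripts gave 0.536 in KO and 0.556 in WT.

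Ratios of counts within a library do not depend on how libraries are scaled, so ratios were compared between the genotypes by a 2-sided exact permutation test, for which the smallest *p* that 3 mice against 3 allow is 0.1. The ratio of *Pck1* to *Pklr*, which sets phosphoenolpyruvate synthesis beside the liver pyruvate kinase that consumes it, had the largest difference of the 4 given here. Its log2 values were 1.83, 2.99 and 3.67 in KO libraries 7-2, 7-3 and 8-3, and 3.47, 3.71 and 4.16 in WT libraries 7-2, 8-1 and 8-3. KO 7-2 and KO 7-3 were below all WT libraries, and KO 8-3 was not. Across genotypes, every library whose label begins with 7 was below every one whose label begins with 8. The part of this split in the difference between genotypes was not tested. The difference of the means was −0.95 (exact permutation *p*=0.2, 0.75 adjusted over the 5 ratios computed, of which 4 are reported), and it ran from −1.37 to −0.45 with 1 library left out.

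The ratio of *Fbp1* to *Pfkl*, the liver phosphofructokinase, differed by 0.16 (exact permutation *p*=0.3), that of *Pck1* to *Pck2* by −0.11 (exact permutation *p*=0.9) and that of *Crtc2* to *Sik1* by −0.10 (exact permutation *p*=0.8). KO and WT overlapped in all 4 ratios.

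**Figure D3:**
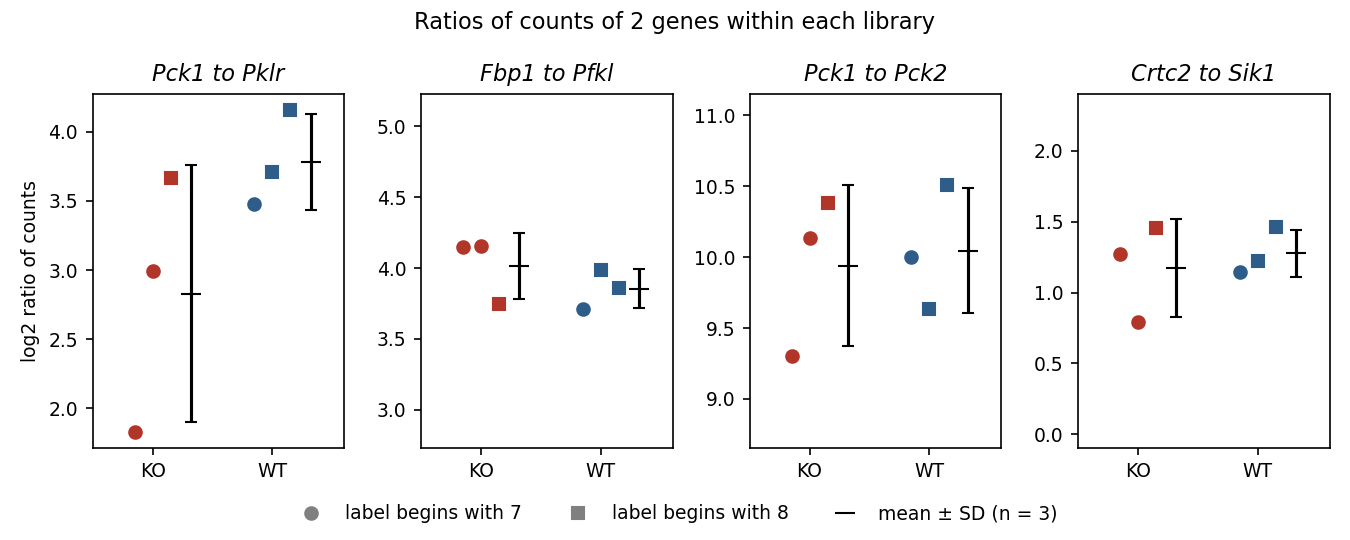
Log2 ratio of the counts of 2 genes within each library (vertical axes, each on its own range) in KO and WT livers, with circles and squares for labels that begin with 7 and 8 and bars for mean ± SD (n = 3). KO and WT overlap in all 4 panels, and KO 7-2 has the lowest log2 ratio of *Pck1* to *Pklr*, at 1.83.

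Other enzymes, shuttles and carriers that gluconeogenesis uses gave 0 of 25 tested genes called by edgeR and 0 by DESeq2, beside 0.448% and 3.08% of all tested genes. On each side 2 genes had an unadjusted *p* under 0.05, beside 13.5% of all tested genes in either direction. The median log2 fold change of the 25 was −0.045. The 4 of them with the smallest *p*, a choice that favours separated groups, did not overlap between the genotypes. Among the 25, every KO library lay above every WT library in 2 and below in 2. The shares of all tested genes were 10.2% and 9.08%. The mitochondrial aspartate and glutamate carrier *Slc25a13* had 77.8, 78.9 and 88.0 CPM in KO libraries 7-2, 7-3 and 8-3, against 64.5, 51.2 and 56.4 CPM in WT libraries 7-2, 8-1 and 8-3 (log2 fold change 0.51, edgeR adjusted *p*=0.203). *Mpc1*, a subunit of the mitochondrial pyruvate carrier, was at 0.38 on the log2 scale (edgeR adjusted *p*=0.322). On the other side were *Ldha*, lactate dehydrogenase A (−0.52, edgeR adjusted *p*=0.281), and *Gpd1*, the cytosolic glycerol-3-phosphate dehydrogenase (−0.62, edgeR adjusted *p*=0.254). *Fbp2* and *Gk* were not among the genes tested.

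Of 24 genes of glucagon, cAMP and CREB signalling, 0 were called by edgeR and 1 by DESeq2, beside 0.448% and 3.08% of all tested genes. At an unadjusted *p* under 0.05, 4 genes were higher in KO and 0 lower, beside 13.5% of all tested genes in either direction. Of all 14076 tested genes, 943 were higher and 951 lower at that *p*. The median log2 fold change was 0.072. The gene that DESeq2 called was *Prkacb*, a catalytic subunit of PKA, with 25.6, 27.1 and 30.4 CPM in KO libraries 7-2, 7-3 and 8-3, against 15.9, 19.0 and 21.2 CPM in WT libraries 7-2, 8-1 and 8-3 (log2 fold change 0.57, adjusted *p*=0.167 from edgeR and 0.0485 from DESeq2). *Adcy9*, an adenylate cyclase (0.56), *Pde3b*, a phosphodiesterase that insulin activates to break down cAMP (0.50), and *Creb1* itself (0.45) had edgeR adjusted *p* values of 0.248, 0.199 and 0.328. KO and WT did not overlap in any of these 4, which were picked by their *p* values. Over the 24 genes, every KO library lay above every WT library in 5 and below in 0. The shares of all tested genes were 10.2% and 9.08%. The glucagon receptor gene *Gcgr*, named for its role and not by its *p*, stood at −0.096.

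Of 24 tested genes of forkhead and nuclear control, 0 were called by edgeR and 2 by DESeq2, beside 0.448% and 3.08% of all tested genes. The unadjusted *p* was under 0.05 for 5 genes, of which 3 were higher in KO, beside 13.5% of all tested genes. Over the 24 genes, every KO library lay above every WT library in 6 and below in 1. The shares of all tested genes were 10.2% and 9.08%. The median was 0.23. *Cry1*, a clock repressor known in mouse liver to dampen the response to glucagon, had 2.48, 3.54 and 2.77 CPM in KO libraries 7-2, 7-3 and 8-3, against 1.43, 1.55 and 1.22 CPM in WT libraries 7-2, 8-1 and 8-3 (log2 fold change 1.06, adjusted *p*=0.0975 from edgeR and 0.00517 from DESeq2). *Nr0b2* encodes the repressor SHP and had −0.66 (adjusted *p*=0.158 from edgeR and 0.0388 from DESeq2). *Foxo3* had 0.47 (edgeR adjusted *p*=0.28). *Igfbp1*, a FOXO1 target that insulin lowers, had 9.72, 22.2 and 9.03 CPM in KO libraries 7-2, 7-3 and 8-3, against 54.1, 18.4 and 25.4 CPM in WT libraries 7-2, 8-1 and 8-3. The WT 7-2 liver was the highest in *Igfbp1* as it was in *G6pc*, and the genotypes overlapped (log2 fold change −1.26, edgeR adjusted *p*=0.257).

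Of 11 genes of the opposing steps of glycolysis and of pyruvate control, edgeR and DESeq2 called 0 each, beside 0.448% and 3.08% of all tested genes. An unadjusted *p* under 0.05 was seen for 4, of which 2 were higher in KO, beside 13.5% of all tested genes. Over the 11 genes, every KO library lay above every WT library in 2 and below in 0. The shares of all tested genes were 10.2% and 9.08%. The median log2 fold change was 0.076. *Pklr* had 240, 187 and 119 CPM in KO libraries 7-2, 7-3 and 8-3, against 149, 70.5 and 95.2 CPM in WT libraries 7-2, 8-1 and 8-3. KO 8-3 was below WT 7-2, so the genotypes overlapped (log2 fold change 0.79, edgeR adjusted *p*=0.312). Every library of *Pklr* that begins with 7 was above every one that begins with 8, and KO was higher within both numbers, by 0.51 and 0.54. *Pdk1* and *Pdk4* encode kinases that switch off pyruvate dehydrogenase, and their log2 fold changes were 0.67 and −0.90 (edgeR adjusted *p*=0.204 and 0.285). *Pfkfb1*, the liver enzyme that makes and breaks down the glycolytic signal fructose 2,6-bisphosphate, had −0.66 (edgeR adjusted *p*=0.258). *Pfkl* had 0.047 (edgeR adjusted *p*=0.935).

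Gluconeogenesis is strongest in periportal hepatocytes, so genes of that zone were counted too. Of 13 genes, 0 were called by edgeR and 2 by DESeq2, beside 0.448% and 3.08% of all tested genes. An unadjusted *p* under 0.05 was seen for 3, of which 2 were higher in KO, beside 13.5% of all tested genes. The median was 0.27. Those that DESeq2 called were *Gls2*, the liver glutaminase, and *Cyp2f2*, a cytochrome P450. *Gls2* had 205, 209 and 221 CPM in KO libraries 7-2, 7-3 and 8-3, against 124, 119 and 137 CPM in WT libraries 7-2, 8-1 and 8-3 (log2 fold change 0.74, adjusted *p*=0.0877 from edgeR and 0.000171 from DESeq2). *Cyp2f2* was likewise at 0.74 on the log2 scale (adjusted *p*=0.162 from edgeR and 0.0039 from DESeq2). *Ctsc*, which encodes the protease cathepsin C, had −0.56 (edgeR adjusted *p*=0.189). *Sox9*, which is also among the cholangiocyte markers given below, had 0.32 (edgeR adjusted *p*=0.459). The summed level of the 13 genes ran from 8421 to 8481 CPM in KO and from 5889 to 7360 CPM in WT, while the summed level of the 6 gluconeogenic enzymes and transporter ran from 1491 to 2117 CPM in KO and from 1386 to 2303 CPM in WT. Such sums weigh abundant genes most. *Ass1* and *Cps1* averaged 2538 and 1795 CPM in KO and 2189 and 1448 CPM in WT (edgeR adjusted *p*=0.698 and 0.509). *Pck1* was the largest part of the other sum. Gene by gene, every KO library lay above every WT library in 4 of 13 and below in 1, beside 10.2% and 9.08% of all tested genes. *Pck1*, *Fbp1* and *G6pc* are periportal in mouse liver as well.

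**Figure D4:**
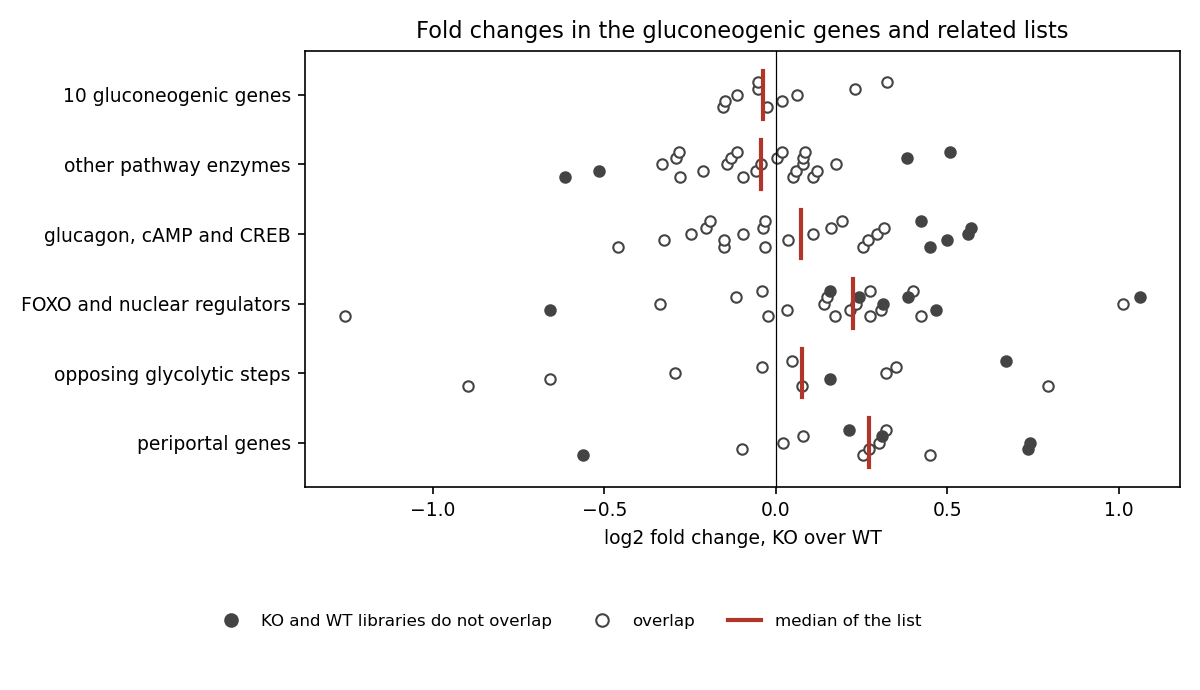
Log2 fold change of KO over WT (horizontal axis) of each tested gene, by list, with filled points for genes whose KO and WT libraries do not overlap, open points for the others and a red bar at each list's median. The 10 gluconeogenic genes are all open and lie between −0.15 and 0.32, while the medians of the other lists run from −0.045 to 0.27.

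The libraries held 60619938 to 68760956 counts in KO and 67299258 to 133384586 in WT, and genes named *Mup*, which encode abundant secreted urinary proteins, took 18.5% to 28.7% of the counts in KO and 31.7% to 54.3% in WT. *Tcf7l2* itself stood at 3.31, 2.74 and 3.33 CPM in KO libraries 7-2, 7-3 and 8-3, against 4.87, 6.13 and 6.85 CPM in WT libraries 7-2, 8-1 and 8-3 (log2 fold change −0.93, adjusted *p*=0.0856 from edgeR and 0.00283 from DESeq2). These counts do not separate the floxed exon from the rest of the gene, and other liver cells keep it. In bulk liver, fewer cells of a type and less RNA per cell cannot be told apart. The 6 markers of stellate cells summed to 56.2 to 63.8 CPM in KO and 28.5 to 38.9 CPM in WT, with none at 0 in any library. For 5 of 6 every KO library lay above every WT library, beside 10.2% of all tested genes. The other marker had a log2 fold change of −0.22. DESeq2 called 3 of the 6 and edgeR 0, beside 3.08% and 0.448% of all tested genes. The 6 sinusoidal endothelial markers summed to 61.2 to 64.3 CPM in KO and 47.1 to 55.4 CPM in WT, with none at 0. For 1 of these 6 every KO library lay above every WT library, beside 10.2% of all tested genes. DESeq2 and edgeR called 0 of them, beside 3.08% and 0.448% of all tested genes. The 6 Kupffer cell markers summed to 42.9 to 58.3 CPM in KO and 53.1 to 72.7 CPM in WT (5 of 6 with a negative log2 fold change, median −0.20), and the 5 cholangiocyte markers to 27.8 to 33.7 CPM in KO and 29.4 to 52.8 CPM in WT (4 of 5 negative, median −0.49), again with none at 0. The part of these lists in the values above was not tested.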

How the data were processed

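For each of the 6 libraries the authors deposited a table of raw counts by gene, counted with the coverage tool of Bedtools from unique and multiple alignments. The submitters' processing notes name TopHat and mm10, and no source used here gives the aligner's version, the annotation or the strand setting of the counting. The deposited counts are whole numbers, before the quantile normalisation that the study's methods describe. No pair held the same library (smallest chi-square per degree of freedom 199).

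Counts were tested with edgeR 4.0.16 (limma 3.58.1, R 4.3.3) as KO against WT on all genes, with TMM factors and filterByExpr (min.count 10, min.total.count 15), which kept 14076 of 23282 genes. Called means a Benjamini-Hochberg adjusted *p* under 0.05. The fit was tested on simulated data. DESeq2 1.42.0 was the other count model. The account of the sequencing in the study's methods names no test, and its threshold on fold change was not used. Alternatives were other scalings, limma on quantile-normalised log2(count + 1), limma-voom, other filters, each library left out and 2 replicate blocks. Ratios used count + 0.5. Gene places and promoters are RefSeq's on GRCm38.p6, the assembly of mm10, and lengths are from GENCODE vM39.

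The 10 genes, the lists and the tests were chosen with earlier results of these data known. Named genes are the 10, *Tcf7l2*, the genes of the ratios and, in each list, the 4 tested genes with the smallest *p*. *Gcgr*, *Lrfn4*, *Ass1* and *Cps1* were added after their values were seen. A gene of one list, and the ratio that used it, are not reported here. Reads carry no molecular identifiers. The labels do not say that the libraries came from separate mice, as the study's text does, and *p* values measure the spread between these 6 libraries.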

Additional observations from a re-analysis of the deposited data

How the results depend on the processing

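In none of the 17 alternatives to the edgeR fit was any of the 10 genes called, except that *Pck2* was not tested with a mean log2 CPM of at least 1, and several estimates, that of *G6pc* among them, changed sign. The cause was not tested. An unadjusted *p* under 0.05 was reached by *Fbp1* and *Sik1* with library sizes alone, *Fbp1* with quantile normalisation, *Pck1* with the whole-number block and *G6pc* without WT 7-2. With library sizes alone, where the median of all genes was 0.61, *Pck1* was at 0.39, *Pck2* at 0.55, *Pcx* at 0.57, *Ppargc1a* at 0.48, *Foxo1* at 0.43 and *Crtc2* at 0.56, and *Ldha* at 0.096, *Pfkfb1* at 0.040 and *Ctsc* at 0.047. That scaling called 2 other pathway enzymes, 8 genes of glucagon signalling, 14 of forkhead and nuclear control, 3 of opposing glycolysis and 4 periportal genes, DESeq2 called 1 gene of glucagon signalling, 2 of forkhead and nuclear control and 2 periportal genes, and quantile-normalised limma called 1 periportal gene, against 0 in each list with edgeR and TMM. Quantile normalisation put *Pcx* at 0.093 and *G6pc* at 0.65, and limma-voom put *G6pc* at 0.63. Over all genes, 63 were called by the edgeR fit (10 higher, 53 lower), 433 by DESeq2 (194 higher, 239 lower), 3020 with library sizes alone (2932 higher, 88 lower), 96 with no filter, and 24 to 87 with 1 library left out. Leaving out 1 library moved the log2 fold change from −0.38 to 0.071 for *Pck1*, −0.13 to 0.12 for *Pck2*, −0.064 to 1.39 for *G6pc*, −0.16 to 0.094 for *Pcx*, −0.069 to 0.21 for *Slc37a4*, −0.23 to 0.060 for *Ppargc1a*, −0.27 to 0.0034 for *Foxo1*, −0.22 to 0.10 for *Crtc2*, −0.17 to 0.25 for *Sik1* and −0.077 to 0.22 for *Pfkl*, and the log2 ratio difference from −0.33 to 0.21 for *Pck1* to *Pck2* and −0.25 to 0.089 for *Crtc2* to *Sik1*. Levels per kb with the median coding length, an alternative chosen after seeing the data, moved for 4 of 10 genes.

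With a replicate block on the first digit of the labels, 39 genes were called, with *Slc37a4* at −0.078 and *Crtc2* at 0.00059. A replicate block on the whole label number called 49 and put *Slc37a4* at −0.10, *Sik1* at −0.16, *Pfkl* at −0.080 and *Pck1* at −0.57 (edgeR adjusted *p*=0.303). With it 8 of 10 genes were negative. Of the 25 other pathway enzymes tested, 7 were lower at an unadjusted edgeR *p* under 0.05, and the median of the 25 was −0.21. Of all 14076 tested genes, 7012 had a positive estimate and 1267 were lower at that *p*, with a median of −0.0015. Only 2 whole numbers are shared by KO and WT, and their deviations had correlations of 0.0079 and −0.0069, so the whole numbers were not taken to pair the libraries. What the leading digit marks is not given.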
